A study of Mus musculus with 16 samples.

Results

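The 8 genes described here encode receptors of colony-stimulating factors and surface receptors of blood progenitors. They were followed while mouse macrophages turned into osteoclasts, with and without α-ketoglutarate. The members are Csf1r, Csf2ra, Csf2rb, Csf2rb2, Csf3r, Flt3, Kit and Cd34. They were chosen by name, as the array features annotated to exactly 1 of these symbols, and for each gene the feature with the highest mean over the 16 arrays was to be kept. All 8 members were found, each on 1 feature, among 22180 genes on the array. A further feature that carries the symbols Cd34 and Gm16897 together was left out by this rule, and its level lay between 3.14 and 3.70 log2 over the 16 arrays. Values are the deposited log2 array values, and all 8 members passed the filter that left out the 30% of genes with the lowest mean (up to 4.34 log2).

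The cells were bone marrow-derived macrophages from male C57BL/6 mice, 5 weeks old, and every group was kept in M-CSF, the ligand of the Csf1r receptor. The αKG groups received 1 mM dimethyl α-ketoglutarate (αKG), a cell-permeable ester of a tricarboxylic acid cycle intermediate, together with RANKL, the cytokine that drives osteoclast formation, for 0.5 and 1 h (fast), 3 and 6 h (early), 12 and 24 h (intermediate) or 48 and 72 h (late). The DW groups received RANKL with DW, the control treatment as the labels name it, for the same early, intermediate and late times. The 0 h group had DW and M-CSF without RANKL. Every later array had RANKL, the αKG arrays included. A difference from 0 h therefore holds the effects of RANKL and of longer culture together, and in the αKG groups that of αKG too. Their separate parts were not tested. Each of the 8 groups held 2 arrays, and apart from 0 h these were 1 array at each of 2 neighbouring times. The labels do not state whether arrays stand for separate cultures or mice, so a p-value here measures the spread between arrays, which within a phase includes the passage of time.

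Colony-stimulating factor receptors sit on the surface of myeloid cells and tell them to survive, divide and mature. Csf1r is a receptor tyrosine kinase for M-CSF and IL-34 on which macrophages and osteoclast precursors depend. Csf2ra binds GM-CSF, and pairs with the common β chain Csf2rb, which also serves the IL-3 and IL-5 receptors. Mice carry a close copy of that chain, Csf2rb2, which serves IL-3 alone. Csf3r is the G-CSF receptor of neutrophils and their precursors. Flt3, the FLT3-ligand receptor, and Kit, the stem cell factor receptor, are tyrosine kinases of stem cells and early progenitors, with Kit also on mast cells. Cd34 is a sialomucin of progenitors and of endothelium. GM-CSF and IL-3 are known to hold osteoclast precursors back from differentiation in mouse marrow cultures.

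The cell labels were checked on marker lists. The 8 macrophage markers averaged 10.04 to 10.75 log2 over αKG arrays and 9.70 to 10.86 log2 over DW arrays, the mean of 11 osteoclast markers reached 9.21 log2 with αKG at 72 h and 11.04 log2 with DW at 72 h, and it was 5.41 and 5.47 log2 at 0 h. Markers of other cells were mixed. Neutrophil markers were present at 0 h, with the mean of 14 genes at 7.01 and 7.02 log2. Of the mast cell and basophil markers 3 of 9 lay above the dim-gene filter, with list means of 3.46 to 3.69 log2 over all arrays. Cpa3 and Fcer1a of that list had means of 2.84 and 2.41 log2. Of the endothelial and stromal markers 8 of 12 lay above the filter, with list means of 4.78 to 4.98 log2. Dendritic cell list means were 5.94 to 6.37 log2 over 8 genes. Each array correlated with the others at a mean r of 0.928 to 0.975, the lowest being DW at 72 h. In whole cultures, fewer cells of a type and less RNA per cell cannot be told apart.

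Upstream sequence is shown for the members whose values changed most. These are the 250 bases before the annotated start of transcription, from RefSeq's GRCm38.p6 sequence, written 5′ to 3′ along the gene, for Cd34 (chr1:194938571-194938820, plus strand), Csf2rb2 (chr15:78305722-78305971, minus strand) and Csf3r (chr4:126024409-126024658, plus strand). Capitals mark matches to the searched motifs. Upstream sequence of 6 of the 8 members was searched. Csf1r and Csf2rb were not among them.
Cd34: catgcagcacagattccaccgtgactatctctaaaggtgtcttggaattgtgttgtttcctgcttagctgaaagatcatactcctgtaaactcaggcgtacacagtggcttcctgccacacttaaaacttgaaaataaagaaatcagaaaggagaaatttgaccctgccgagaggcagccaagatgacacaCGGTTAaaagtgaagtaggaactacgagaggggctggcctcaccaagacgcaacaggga
Csf2rb2: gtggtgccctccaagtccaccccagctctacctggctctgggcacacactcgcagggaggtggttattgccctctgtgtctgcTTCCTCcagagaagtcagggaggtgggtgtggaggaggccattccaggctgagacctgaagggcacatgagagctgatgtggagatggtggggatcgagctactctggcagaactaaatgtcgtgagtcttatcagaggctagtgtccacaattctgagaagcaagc
Csf3r: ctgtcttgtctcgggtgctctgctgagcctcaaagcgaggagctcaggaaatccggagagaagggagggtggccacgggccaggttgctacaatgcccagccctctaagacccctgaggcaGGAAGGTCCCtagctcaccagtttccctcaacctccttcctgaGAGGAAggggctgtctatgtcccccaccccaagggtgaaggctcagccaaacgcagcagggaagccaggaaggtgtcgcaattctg
Both strands were searched for 6 motifs: GAGGAA, a core of sites for PU.1, the myeloid master factor; TAACNG, the MYB motif; GGGA, 4 bases of any kind and CC for NF-kB, which acts below RANKL; TGANTCA for AP-1; TTGCNNAA for C/EBP; and AGATAA for GATA factors. Cd34 held 1 MYB match on the minus strand, from base -59 to base -54 relative to the start, and 19.8% of 32851 promoters of the same length held that motif. Csf2rb2 held 1 PU.1 core, on the minus strand from base -167 to base -162. Csf3r held 1 PU.1 core from base -86 to base -81 and 1 NF-kB match on the minus strand from base -129 to base -120, with no overlap between them. The PU.1 core was found in 23.3% and the NF-kB motif in 17.6% of all promoters. Csf2ra had 2 PU.1 cores and Kit had 1. The letters searched for AP-1, C/EBP and GATA factors, which 6.75%, 9.56% and 9.99% of all promoters held, were not in these windows. Other forms of these sites were not searched. A match describes letters and not a bound site.

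**Figure D1:**
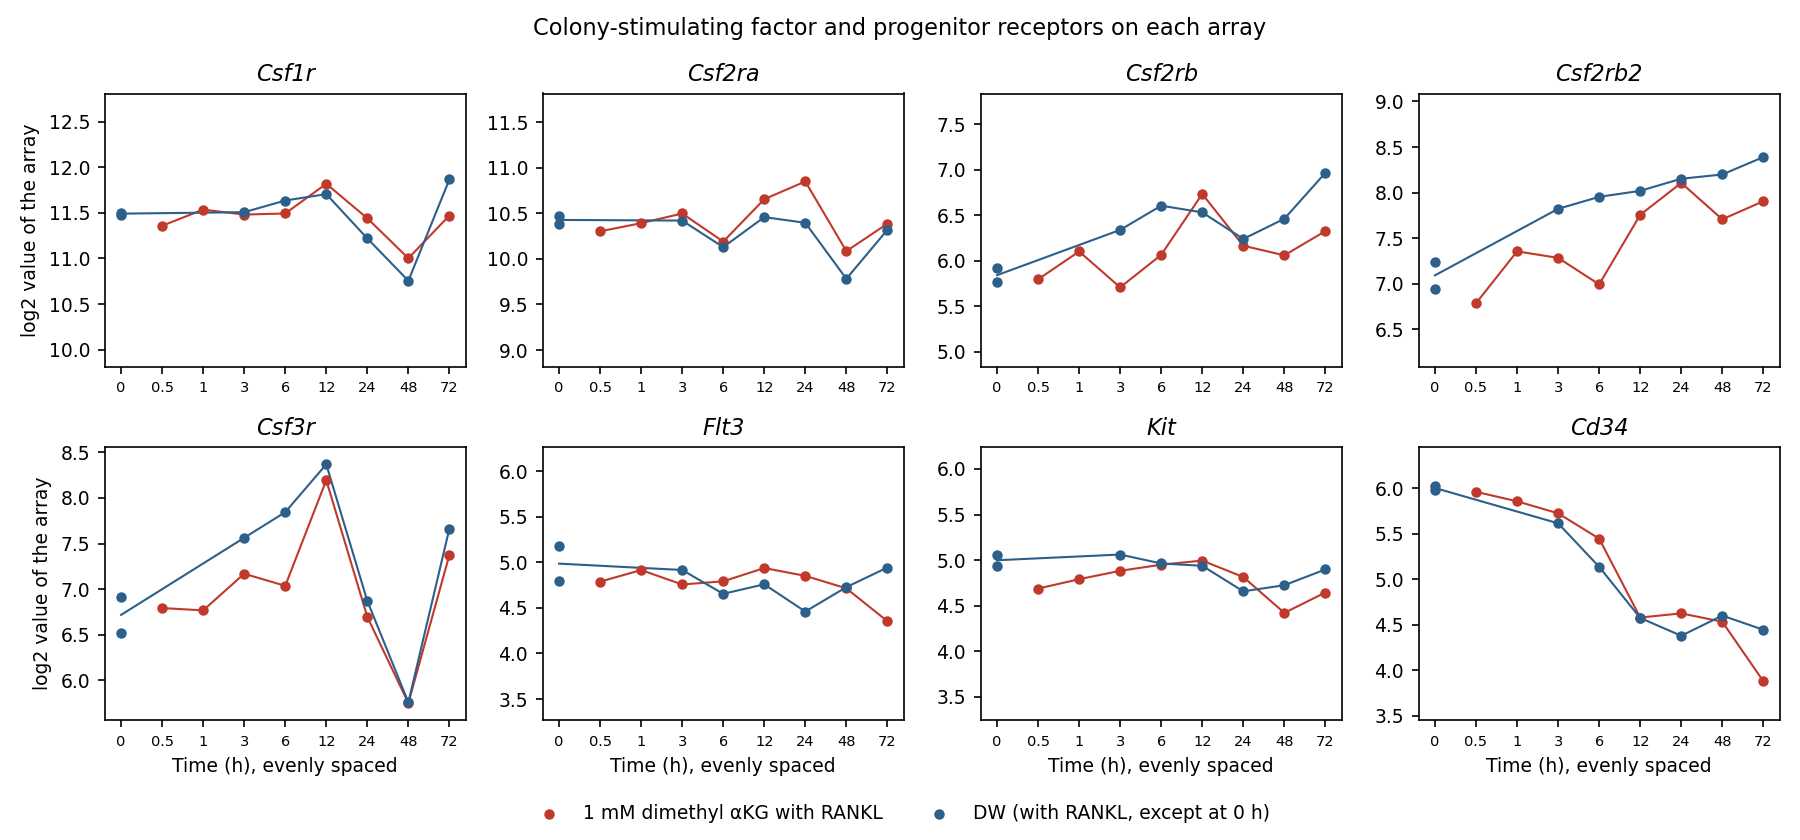
Level of each of the 8 members (log2 array value, y axis) on every array against time in hours (x axis, evenly spaced steps), with αKG in red and DW in blue, the 2 points at 0 h being arrays without RANKL. Cd34 ran downward in both arms, Csf2rb2 and Csf2rb ran upward with αKG points mostly below DW points, Csf3r and Csf1r dipped at 48 h and were higher again at 72 h, and Flt3 and Kit stayed within 0.82 and 0.64 log2.

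Cd34 fell over the time course in both arms. It stood at 5.96, 5.86, 5.72, 5.45, 4.58, 4.63, 4.53 and 3.88 log2 with αKG at 0.5, 1, 3, 6, 12, 24, 48 and 72 h. With DW it stood at 5.98 and 6.02 log2 at 0 h and at 5.62, 5.14, 4.58, 4.38, 4.60 and 4.45 log2 at 3, 6, 12, 24, 48 and 72 h. Every array from 12 h on lay below every earlier array, and among the 12 to 72 h arrays the arms overlapped. The level had largely dropped by 12 h. From then on the arrays lay around the filter value of 4.34 log2, the αKG 72 h array below it, and the files give no background level per gene, so the sizes of the falls and slopes below may be too small. The fall from 0 h was 1.40 ± 0.21 log2 in the αKG intermediate phase (SE, limma adjusted p = 0.0172) and 1.79 ± 0.21 log2 in the αKG late phase (limma adjusted p = 0.0029). With DW it fell by 1.52 ± 0.21 log2 in the intermediate phase (limma adjusted p = 0.00894) and by 1.48 ± 0.21 log2 in the late phase (limma adjusted p = 0.00233). All of these phases were set against the same 0 h arrays. The early differences of -0.42 with αKG and -0.63 log2 with DW did not pass (limma adjusted p = 0.689 and 0.443), nor did the fast difference of -0.09 log2.

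Ordered by level, the 0 h and fast αKG groups were highest, the early groups followed, and the 4 intermediate and late groups lay lowest with overlapping or nearly touching ranges (3.88 to 4.63 log2 together). As a line in log2 hours over 3 to 72 h, Cd34 changed by -0.36 ± 0.06 log2 per doubling of time with αKG (limma adjusted p = 0.0359) and by -0.24 ± 0.06 log2 with DW (limma adjusted p = 0.0604). The slopes differed by -0.12 ± 0.09 log2, which did not pass (limma adjusted p = 1), and 0 of the 15526 genes passed that test (596 at an unadjusted p under 0.05, none of them a member). The intermediate calls did not hold when either 0 h array was left out (limma adjusted p = 0.165 and 0.178 with αKG, 0.113 and 0.0997 with DW), whereas both late calls did (limma adjusted p = 0.034 and 0.043 with αKG, 0.0261 and 0.0289 with DW). Without the 24 h array the DW intermediate call was also lost (limma adjusted p = 0.0866), as was the αKG intermediate call without its 12 or its 24 h array (limma adjusted p = 0.113 and 0.0815). The αKG slope lost its call without the pair of arrays at 3, 6, 24, 48 or 72 h (limma adjusted p = 0.258, 0.244, 0.0677, 0.0797 and 0.163).

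Neutrophil and promyelocyte markers moved in the same direction. Their 14-gene mean was 5.42 and 4.98 log2 in the αKG late arrays and 5.13 and 4.82 log2 in the DW late arrays, and 11 of 12 tested markers fell in the late phase of either arm against 0 h. Elane, a granule protease of promyelocytes, fell by 3.43 ± 0.45 log2 with αKG and by 3.48 ± 0.45 log2 with DW (limma adjusted p = 0.00438 and 0.00129). At 12 h, where Cd34 was already at 4.58 log2 in both arms, the neutrophil mean was 7.18 log2 with αKG and 7.07 log2 with DW, against 7.01 and 7.02 log2 at 0 h. The part of these cells in the late Cd34 values was not tested. The endothelial marker Cdh5 fell by 1.55 ± 0.33 log2 in the DW late phase (limma adjusted p = 0.0185). It was the 1 endothelial or stromal marker of 8 tested to pass there (3 at an unadjusted p under 0.05). The list as a whole did not fall with it: 6 of the 8 lay above 0, with a median of 0.25 log2. The part of such cells was not tested either.

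The genes most like Cd34 over the 16 arrays were Clcn5, a chloride-proton exchanger (Pearson r = 0.96), Ccnd2, the G1 cyclin D2 (r = 0.953), and Ptbp3, an RNA-binding splicing regulator (r = 0.945). These correlations describe arrays that share their time course. Ccnd2 was at 5.38 and 4.39 log2 in the αKG late arrays and at 4.51 and 4.68 log2 in the DW late arrays, against 7.55 and 7.64 log2 at 0 h.

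The β chains moved the other way. Csf2rb2 was at 6.79, 7.35, 7.28, 6.99, 7.76, 8.11, 7.71 and 7.90 log2 with αKG over 0.5 to 72 h. With DW it was at 7.24 and 6.94 log2 at 0 h and at 7.82, 7.95, 8.02, 8.15, 8.20 and 8.39 log2 over 3 to 72 h. Every DW array with RANKL lay above both 0 h arrays, while the αKG arrays up to 6 h lay between 6.79 and 7.35 log2, around the 0 h arrays, and those from 12 h on lay above them. Csf2rb2 rose by 1.20 ± 0.21 log2 in the DW late phase (limma adjusted p = 0.00681). The DW early and intermediate differences were 0.80 and 0.99 log2 and did not pass (limma adjusted p = 0.23 and 0.0637). With αKG the differences from 0 h were -0.02, 0.05, 0.84 and 0.71 log2 in the fast, early, intermediate and late phases, and none passed (limma adjusted p of at least 0.126). The DW late call did not hold without the second 0 h array or without the 72 h array (limma adjusted p = 0.0833 and 0.0506).

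Csf2rb, the shared chain, ran a similar course over a smaller range. It was at 5.80, 6.10, 5.71, 6.07, 6.73, 6.17, 6.06 and 6.33 log2 with αKG over 0.5 to 72 h. With DW it was at 5.76 and 5.92 log2 at 0 h and at 6.34, 6.61, 6.53, 6.24, 6.46 and 6.97 log2 over 3 to 72 h. All 6 DW arrays with RANKL lay above both 0 h arrays, and 1 of the 2 early αKG arrays did not. The DW late difference of 0.87 ± 0.24 log2 was just short of the threshold (limma adjusted p = 0.0524), and it passed without the DW 48 h array (limma adjusted p = 0.0205) or with the dimmest 50% of genes left out (limma adjusted p = 0.0446). The αKG late difference was 0.35 log2 (limma adjusted p = 0.651). Over the 16 arrays Csf2rb and Csf2rb2 correlated at r = 0.772. They are near-identical neighbours on chromosome 15 with 0 annotated genes between them in the GRCm38.p6 gene table, so probe sequence may be shared and each value is less certain. The closest genes by correlation were Zfp984, Zfp524 and Gstt2 for Csf2rb2 (r = 0.922, 0.911 and 0.906) and Parp8, Prex1 and Ptms for Csf2rb (r = 0.892, 0.886 and 0.883).

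**Figure D2:**
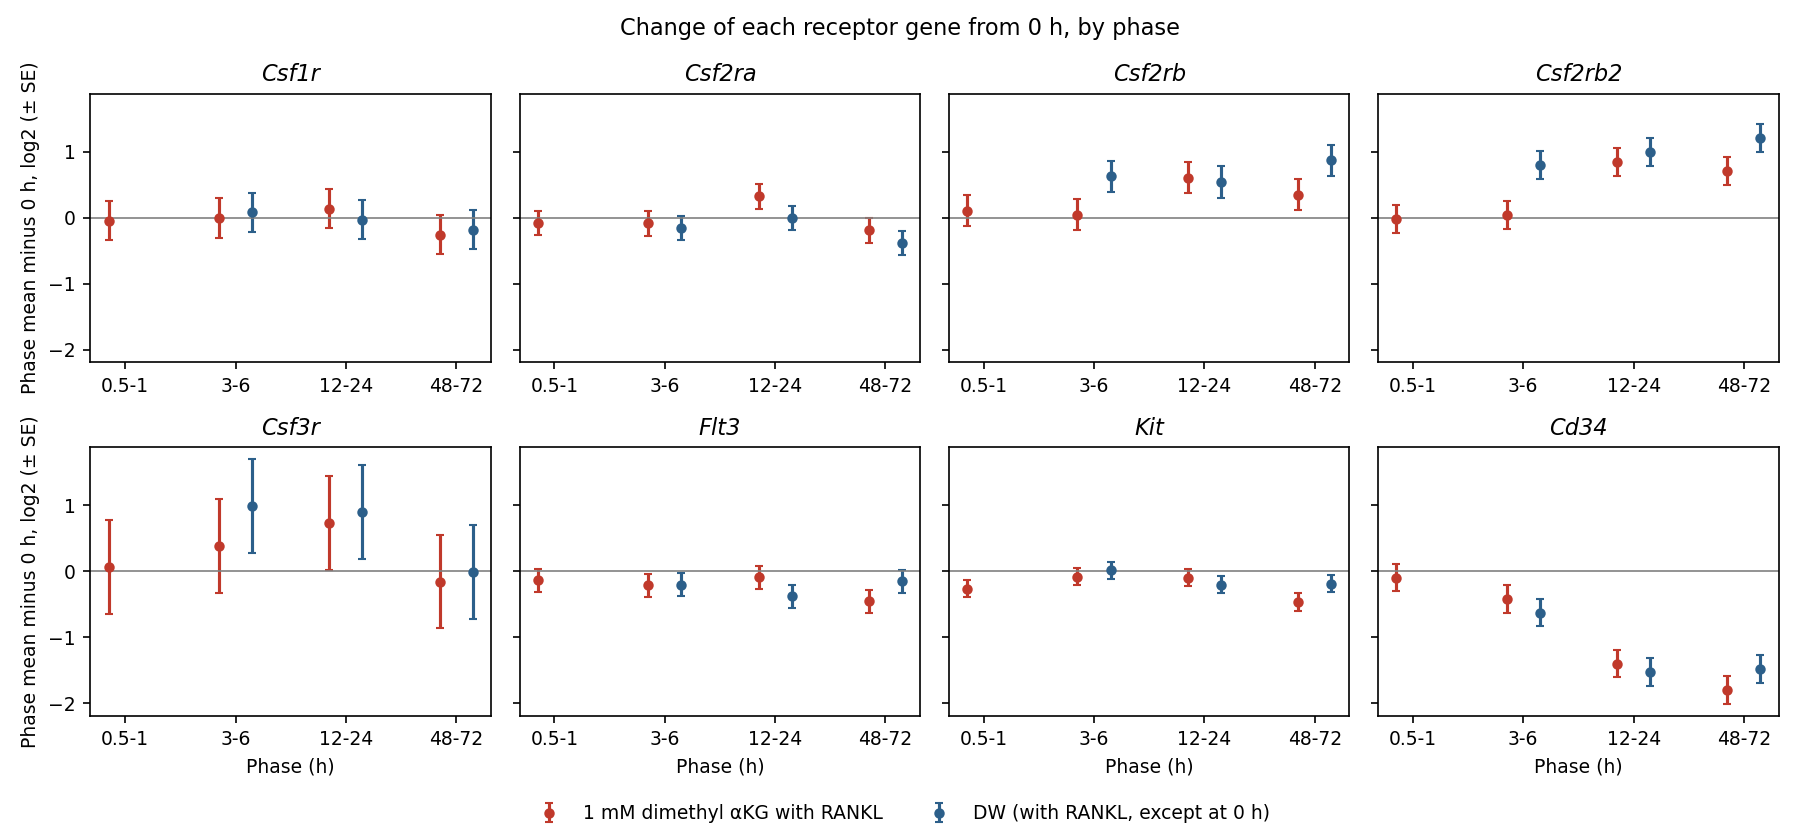
Difference of each member from the 0 h arrays (log2, y axis) by phase, with αKG in red to the left of DW in blue and bars of 1 SE from the limma fit of 8 groups. Cd34 lay below 0 by 1.40 log2 or more in the intermediate and late phases of both arms, and Csf2rb2 reached 1.20 log2 in the DW late phase.

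Csf3r had the widest range of the 8 members, 2.62 log2 over the 16 arrays, and swung the same way in both arms. It was at 6.79, 6.77, 7.17, 7.04, 8.20, 6.69, 5.75 and 7.38 log2 with αKG over 0.5 to 72 h. With DW it was at 6.52 and 6.91 log2 at 0 h and at 7.56, 7.84, 8.37, 6.87, 5.76 and 7.66 log2 over 3 to 72 h. The highest array of either arm was at 12 h and the lowest at 48 h. Between 12 and 24 h the level dropped by 1.50 log2 in both arms, between 24 and 48 h by 0.95 log2 with αKG and 1.11 log2 with DW, and from 48 to 72 h it was higher by 1.63 log2 with αKG and 1.91 log2 with DW. Since neighbouring times form the phase groups, this swing enters the spread, the SE of a Csf3r difference from 0 h was 0.71 log2, and no such difference passed. These steps are differences between single arrays and have no test. Of all genes tested, 2.05% with αKG and 2.68% with DW dropped by at least 1 log2 between 12 and 24 h, and 1.58% with αKG and 2.80% with DW were higher by at least 1 log2 at 72 h than at 48 h.

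The receptor of M-CSF showed the same dip at a smaller size. Csf1r was at 11.36, 11.54, 11.48, 11.49, 11.82, 11.44, 11.00 and 11.47 log2 with αKG over 0.5 to 72 h. With DW it was at 11.48 and 11.50 log2 at 0 h and at 11.51, 11.64, 11.71, 11.22, 10.76 and 11.87 log2 over 3 to 72 h. The 48 h array was the lowest in either arm, and the 72 h array stood 0.47 log2 above it with αKG and 1.11 log2 above it with DW. Differences of Csf1r from 0 h lay between -0.26 and 0.14 log2 with an SE of 0.30 log2, and none passed. Csf1r and Csf3r correlated at r = 0.861 over the 16 arrays. Genes most like Csf1r were Laptm4a, a lysosomal membrane protein, Ms4a4a, a macrophage membrane protein, and Adgre1, which encodes the macrophage marker F4/80 (r = 0.944, 0.924 and 0.919). Those most like Csf3r were Agtrap, the lectin receptor Clec4a1 and Dhrs1 (r = 0.949, 0.947 and 0.946). The mean of the 8 macrophage markers was also lowest at 48 h, at 10.04 log2 with αKG and 9.70 log2 with DW, and stood at 10.50 and 10.28 log2 at 72 h. The neutrophil mean did not return at 72 h, when Csf3r was above both 0 h arrays in either arm. The part of macrophage RNA in the dip was not tested.

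**Figure D3:**
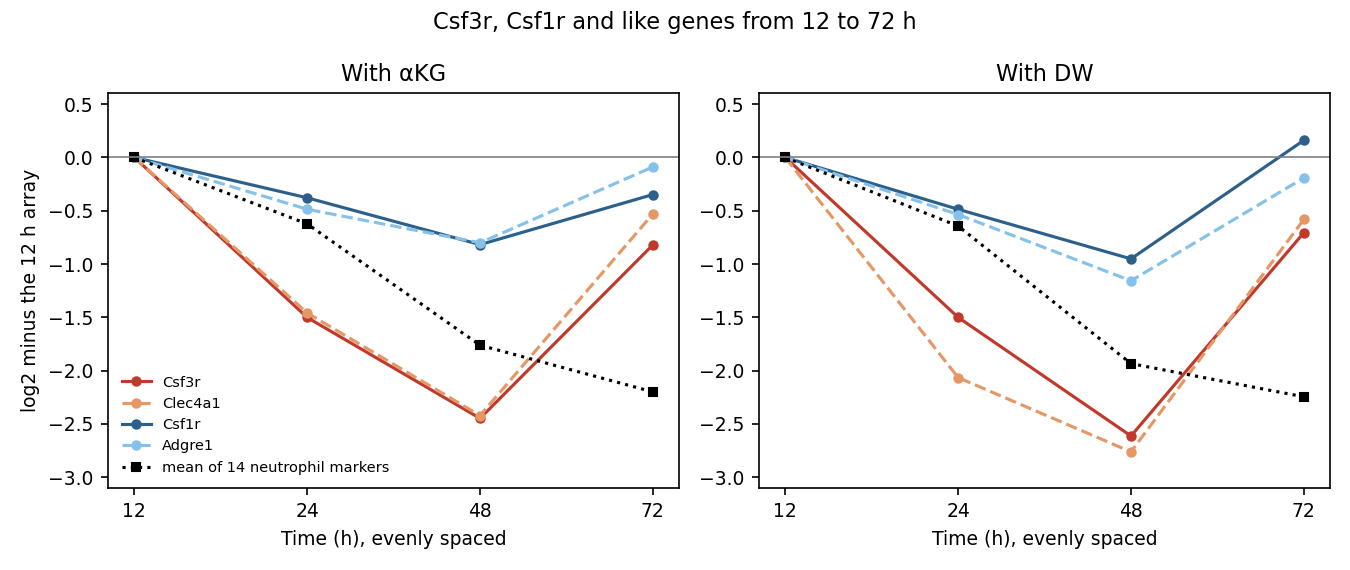
Level at 12, 24, 48 and 72 h minus the 12 h array of the same arm (log2, y axis) for Csf3r and its like gene Clec4a1, Csf1r and its like gene Adgre1, and the mean of the 14 neutrophil markers, with αKG in the left panel and DW in the right. Csf3r and Csf1r were lowest at 48 h and higher at 72 h in both arms, whereas the neutrophil mean was lower at 72 h than at 48 h.

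Csf2ra, the GM-CSF-binding chain, also had its lowest array at 48 h in either arm. It was at 10.30, 10.39, 10.50, 10.19, 10.66, 10.85, 10.09 and 10.39 log2 with αKG over 0.5 to 72 h. With DW it was at 10.38 and 10.47 log2 at 0 h and at 10.42, 10.13, 10.46, 10.40, 9.78 and 10.32 log2 over 3 to 72 h. Differences from 0 h lay between -0.38 and 0.32 log2 (SE 0.18), none passed, and the groups overlapped in most phases. Its nearest genes were Plbd1, Apoc2 and Fam50a (r = 0.818, 0.814 and 0.808).

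The stem and progenitor kinases stayed dim. Flt3 ranged over 0.82 log2 and Kit over 0.64 log2 across the 16 arrays, and their means lay 0.45 and 0.50 log2 above the filter value. Flt3 was at 4.79, 4.92, 4.76, 4.79, 4.94, 4.85, 4.72 and 4.35 log2 with αKG over 0.5 to 72 h, and with DW at 5.18 and 4.79 log2 at 0 h and at 4.92, 4.65, 4.76, 4.46, 4.73 and 4.94 log2 over 3 to 72 h. Kit was at 4.69, 4.79, 4.88, 4.95, 4.99, 4.81, 4.42 and 4.64 log2 with αKG, and with DW at 4.94 and 5.06 log2 at 0 h and at 5.06, 4.96, 4.94, 4.66, 4.72 and 4.90 log2. The 2 arrays at 0 h themselves differed by 0.38 log2 for Flt3 and 0.12 log2 for Kit. Differences from 0 h lay between -0.45 and -0.09 log2 for Flt3 and between -0.47 and 0.01 log2 for Kit, and none passed. At this brightness a change could not be told from background, since the files give no background level per gene. The nearest genes were Ifna7, Tfap2e and Camk4 for Flt3 (r = 0.801, 0.791 and 0.78) and Clec4b2, Rasgrp2 and Gusb for Kit (r = 0.856, 0.798 and 0.791).

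Counted over the members, 1 of 8 (Cd34) passed in the αKG late phase against 0 h (4 at an unadjusted p under 0.05), where limma called 1.43% of all 15526 genes in either direction. In the DW late phase 2 passed, Cd34 downward and Csf2rb2 upward (3 at an unadjusted p under 0.05), where it called 6.64%. In the intermediate phases 1 passed with αKG and 1 with DW, Cd34 in either case (3 unadjusted in either arm), beside 0.670% and 0.779% of all genes. In the early phases 0 members passed with αKG (0 unadjusted) and 0 with DW (3 unadjusted), beside 0.502% and 0.341%. In the fast αKG phase 0 members passed (0 unadjusted), and limma called 0.00% of all genes, with 540 at an unadjusted p under 0.05. For the slopes 1 member, Cd34, passed with αKG (3 unadjusted) and 0 passed with DW (1 unadjusted), beside 0.535% and 3.35% of genes. A single member is no group trend: the median late change was -0.22 log2 with αKG and -0.17 log2 with DW, against -0.00 log2 over all genes tested in either arm. In a fit of the DW early and 0 h arrays alone, Csf3r, Csf2rb2 and Csf2rb passed (limma adjusted p = 0.00992, 0.0108 and 0.0359). That fit called 775 of the 15526 genes, against 53 in the fit of 8 groups.

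Next, αKG was set against DW at the 6 shared times in a limma fit with a term for each time. Csf2rb2 was below DW in the αKG array at 6 of 6 times, averaging 7.62 log2 with αKG and 8.09 log2 with DW, a difference of -0.46 ± 0.11 log2 (95% interval -0.70 to -0.23, limma adjusted p = 0.108). Csf3r was below DW at 6 of 6 times, averaging 7.04 log2 with αKG and 7.34 log2 with DW, a difference of -0.31 ± 0.10 log2 (95% interval -0.53 to -0.09, limma adjusted p = 0.231). At single times the smallest differences were -0.05 log2 for Csf2rb2 (24 h) and -0.01 log2 for Csf3r (48 h), where the arms were nearly equal. Csf2rb was below DW at 5 of 6 times, averaging 6.18 log2 with αKG and 6.52 log2 with DW, a difference of -0.35 ± 0.12 log2 (95% interval -0.61 to -0.09, limma adjusted p = 0.246). Csf2ra ran the other way and was above DW at 6 of 6 times, averaging 10.44 log2 with αKG and 10.25 log2 with DW, a difference of 0.19 ± 0.06 log2 (95% interval 0.05 to 0.33, limma adjusted p = 0.231). None of these differences passed adjustment over all genes, so the count was 0 of 8 members (4 at an unadjusted p under 0.05), beside 0.399% of all genes called. Of all genes, 3.98% lay below DW and 4.36% above it at all 6 times. The median difference was -0.05 log2 for the members and -0.00 log2 for all genes.

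The other 4 members had intervals that span 0. Csf1r differed by 0.00 ± 0.08 log2 (95% interval -0.18 to 0.18), with 3 times in each direction. Cd34 differed by 0.01 ± 0.11 log2 (95% interval -0.24 to 0.25), Flt3 by -0.01 ± 0.12 log2 (95% interval -0.27 to 0.25) and Kit by -0.09 ± 0.08 log2 (95% interval -0.27 to 0.09). These intervals bound the mean difference and do not show that the arms were alike.

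**Figure D4:**
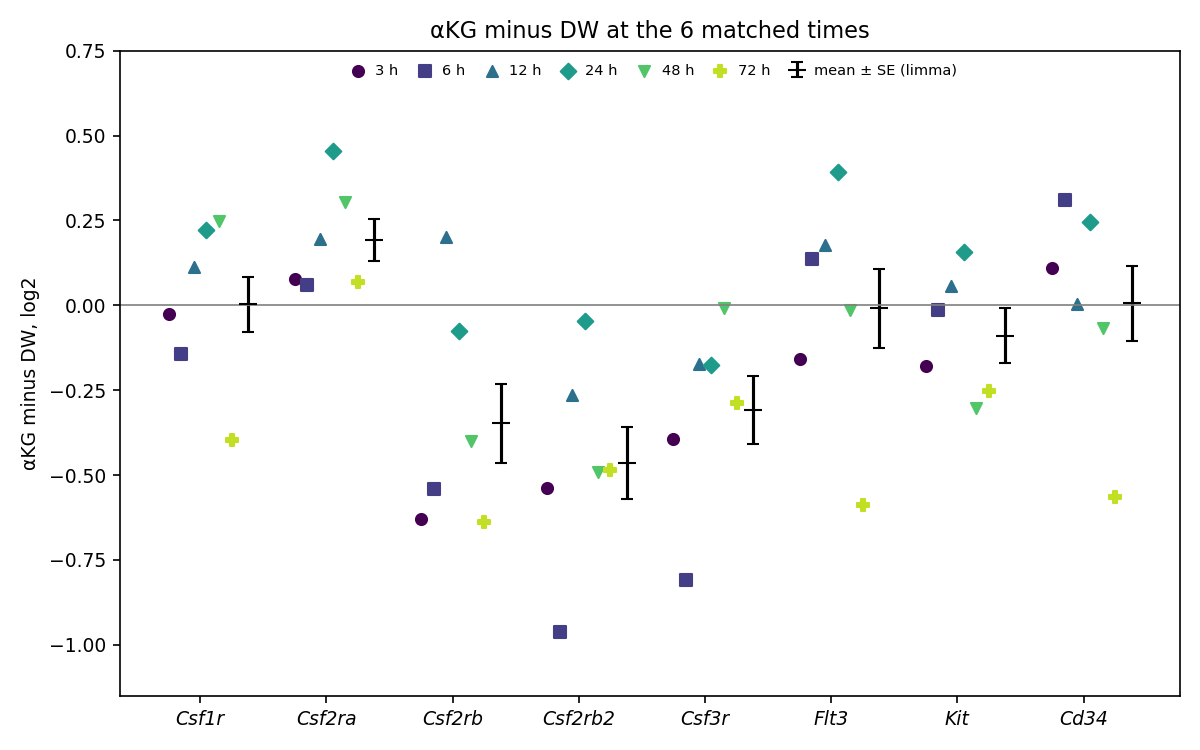
αKG minus DW difference of each member at the 6 matched times (log2, y axis; 1 point per time, with a symbol for each time) and the limma mean with a bar of 1 SE. All 6 points lay below 0 for Csf2rb2 and Csf3r and above 0 for Csf2ra, and none of the 8 means passed adjustment over all genes. The Csf3r point at 48 h lay at -0.01 log2.

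By phase, the differences of the β chains and Csf3r were largest early. αKG lay below DW in the early phase by -0.75 ± 0.13 log2 for Csf2rb2 (limma adjusted p = 0.0909), -0.60 ± 0.13 log2 for Csf3r and -0.59 ± 0.13 log2 for Csf2rb (limma adjusted p = 0.187 each). In that phase 0 of 8 members passed (3 unadjusted), beside 0.161% of genes. In the intermediate phase 0 passed (1 unadjusted), beside 0.0966% of genes, and Csf2ra had the largest difference, 0.33 ± 0.09 log2 (limma adjusted p = 0.301). In the late phase 0 passed (2 unadjusted), beside 4.27% of genes. Csf2rb differed there by -0.52 ± 0.13 log2 (limma adjusted p = 0.0595), Csf2rb2 by -0.49 ± 0.13 log2 (limma adjusted p = 0.0686) and Cd34 by -0.32 ± 0.16 log2 (limma adjusted p = 0.321). The Cd34 value is the mean of -0.07 at 48 h and -0.57 at 72 h, where the αKG array lay below the filter value. The members' median late difference was -0.29 log2, against 0.01 log2 over all genes tested. That median lies between Flt3 at -0.30 and Kit at -0.28 log2, both dim and not passed, so it shows no shift of the group. The osteoclast markers, by contrast, were all lower with αKG than with DW in the late phase (11 of 11 tested), for example Oscar by -2.79 ± 0.14 log2 (limma adjusted p = 0.000106). Csf1r showed -0.07 log2 in the late phase (limma adjusted p = 0.807), the mean of 0.25 at 48 h and -0.40 at 72 h, so its value there rests on which of the 2 times is read. The difference between late and early effects was tested and 0 members passed (2 unadjusted), beside 0.605% of genes. It was 0.45 ± 0.19 log2 for Csf3r (limma adjusted p = 0.315) and -0.53 ± 0.23 log2 for Cd34 (limma adjusted p = 0.326). For the β chains it was 0.26 ± 0.18 log2 for Csf2rb2 and 0.07 ± 0.18 log2 for Csf2rb (limma adjusted p = 0.566 and 0.917). Leaving out a pair of arrays changed some of these calls. Without the 48 h pair, early Csf2rb2 and Csf3r passed (limma adjusted p = 0.0181 and 0.0438), as did late Csf2rb at -0.64 log2 (limma adjusted p = 0.0356) and Csf1r at -0.40 log2 (limma adjusted p = 0.0079). These late values set 1 array at 72 h against 1 array at 72 h, with the spread taken from the other phases. Without the 72 h pair early Csf2rb2 passed (limma adjusted p = 0.0202).

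Genes around the members were taken from lists of their pathways. Among surface genes of progenitors, 9 of 14 were tested, and 2 fell and 0 rose in the late phase of either arm. Cd93, a C-type lectin of early progenitors, fell by 1.12 ± 0.12 log2 with αKG and by 1.79 ± 0.12 log2 with DW (limma adjusted p = 0.00216 and 4.24e-05), and in the late phase it was 0.67 ± 0.10 log2 higher with αKG than with DW (limma adjusted p = 0.00932). Cd164, a sialomucin as Cd34 is, fell by 1.13 ± 0.21 log2 with αKG and by 1.16 ± 0.21 log2 with DW (limma adjusted p = 0.0226 and 0.00758). In the late phase Cd33 and Cd48 were higher with αKG than with DW too, by 0.75 and 0.45 log2 (limma adjusted p = 0.0457 and 0.0298). The list's median late change was -0.32 log2 with αKG and -0.40 log2 with DW. Of 19 tested transcription factors of progenitors and myeloid cells (24 listed), 2 fell with αKG and 3 fell and 1 rose with DW. Myb, a factor of proliferating progenitors, fell by 1.26 ± 0.17 log2 with αKG and fell by 1.45 ± 0.17 log2 with DW (limma adjusted p = 0.00464 and 0.00063). Fli1, an ETS factor of the same cells, fell by 0.85 ± 0.17 log2 with αKG and by 1.18 ± 0.17 log2 with DW (limma adjusted p = 0.0353 and 0.00254). Spi1, which encodes PU.1, rose by 0.68 ± 0.13 log2 with DW (limma adjusted p = 0.00995), and Klf4, a monocyte factor, was 0.78 ± 0.15 log2 higher with αKG than with DW in the late phase (limma adjusted p = 0.0242).

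**Figure D5:**
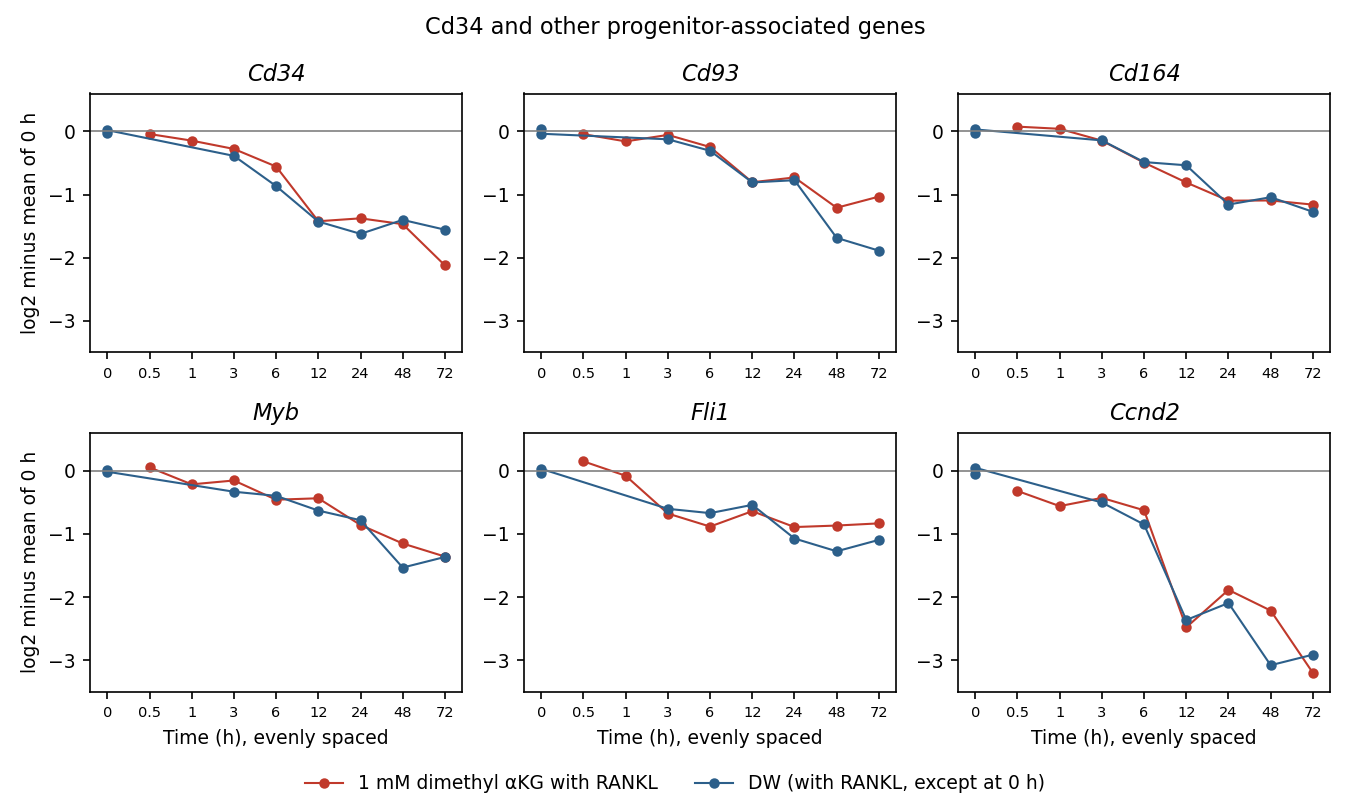
Change from the mean of the 0 h arrays (log2, y axis) over time (hours, x axis) for Cd34, Cd93, Cd164, Myb, Fli1 and Ccnd2, with αKG in red and DW in blue. Cd34 was low from 12 h on, while Cd93 and Cd164 ended 1.12 to 1.79 log2 below 0 h in the late phase.

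Few signalling genes of each role passed. Of the 5 tested ligands of these receptors (8 listed), 0 passed limma in any phase comparison (at most 1 at an unadjusted p under 0.05 in each), and Csf1, which encodes M-CSF, had a falling slope with DW of -0.21 ± 0.04 log2 per doubling of time (limma adjusted p = 0.0325). Of 6 tested related receptors (10 listed), Il7r, the IL-7 receptor α chain, fell by 2.70 ± 0.68 log2 in the DW late phase (limma adjusted p = 0.0372) and was 1.06 ± 0.14 log2 higher with αKG than with DW there (limma adjusted p = 0.00526), as was Il6ra by 0.45 log2 (limma adjusted p = 0.0457). Of 20 tested adaptors and kinases (24 listed), Src, the kinase that osteoclasts need to form a ruffled border, rose by 2.03 ± 0.28 log2 with αKG and by 3.51 ± 0.28 log2 with DW in the late phase (limma adjusted p = 0.00498 and 0.000117). Src was 1.48 log2 below DW with αKG there (difference -1.48 ± 0.11 log2, limma adjusted p = 0.000762), and its late minus early contrast passed as well (-1.33 ± 0.16 log2, limma adjusted p = 0.0176). Pik3cg and Vav1 fell by 1.48 and 0.66 log2 in the DW late phase (limma adjusted p = 0.00687 and 0.0063).

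Brakes and proteases completed the pathway. Of 14 negative regulators, all tested, Inpp5d, the SHIP1 phosphatase, fell by 0.70 ± 0.14 log2 in the DW late phase (limma adjusted p = 0.0146), and Dusp1, a MAP kinase phosphatase, was 0.60 ± 0.11 log2 higher with αKG than with DW there (limma adjusted p = 0.018). Cbl, the ubiquitin ligase that turns over Csf1r and Kit, had a falling slope with DW (-0.17 log2 per doubling of time, limma adjusted p = 0.0297). Of 5 shedding genes, all tested, Adam17, the protease that cleaves Csf1r from the surface, rose by 0.66 ± 0.11 log2 with αKG in the early phase (limma adjusted p = 0.0304) and with DW by 0.75 ± 0.11 log2 early and 0.60 ± 0.11 log2 in the intermediate phase (limma adjusted p = 0.0205 and 0.0443). The αKG intermediate change did not pass, though the arms were close there. At 12 and 24 h Adam17 stood at 10.18 and 10.05 log2 with αKG and at 10.19 and 10.07 log2 with DW. Adam17 was 0.43 ± 0.09 log2 higher with αKG than with DW in the late phase (limma adjusted p = 0.0336). Adam10 and Rhbdf2, a partner of Adam17, fell by 0.50 and 0.84 log2 in the DW late phase (limma adjusted p = 0.023 and 0.00745). Of the other marker lists, 9 of 11 osteoclast markers rose with DW and 7 of 11 with αKG in the late phase, 3 of 8 macrophage markers fell with DW and 1 with αKG, and 0 of 3 tested mast cell and basophil (0 at an unadjusted p under 0.05) and 0 of 7 tested dendritic cell markers (0 with αKG and 3 with DW at an unadjusted p under 0.05) passed limma in either arm.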

How the data were processed

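The deposited values of 16 arrays were used as the authors gave them, on a log2 scale. The base was read from their range (0.61 to 13.25), array medians of 4.84 to 4.93 show that arrays had been normalized to each other, and no label or header names how probes were summarised or background was corrected. Per the labels' protocols, total RNA was biotin-labelled. Of 33793 features, 23521 had 1 symbol, 1814 several and 8458 none here. The 8 members and 13 gene lists were chosen with earlier results of these data known. Members were named in every comparison, and from each list up to 4 called genes with the smallest adjusted p, markers set beside a member and, for each member, the 3 genes of highest Pearson correlation.

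After the filter on dim genes, limma 3.58.1 in R 4.3.3 (lmFit, eBayes with trend) was fitted to 15526 genes with Benjamini-Hochberg adjustment at 0.05. Phases were set against 0 h in 1 fit of 8 groups (8 residual degrees of freedom). αKG and DW were compared with time as a block, as 1 effect (5 degrees) or by phase (3 degrees). Slopes used log2 hours (8 degrees). Errors after ± are SEs. The pairing by time comes from the labels, and in the data arrays of the same time deviated together (r = 0.502 to 0.749), each matching its own time best at 6 of 6 times. Fits were run on simulated arrays with independent noise and no deviation shared by time, so these runs do not test the time block. Alternatives were other filters, normalizations and eBayes settings, fits of only the groups compared, no time block, time as a rank, the mean of a gene's features, and leaving out arrays in turn. The number of arrays limits the precision.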

Additional observations from a re-analysis of the deposited data

Results flagged for a closer look

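Some members' mean αKG minus DW difference had opposite signs in different phases, with both arrays of each phase on the same side. Csf1r differed by -0.08 log2 early and 0.17 log2 in the intermediate phase, a shift of 0.25 log2. Flt3 differed by 0.29 log2 in the intermediate phase and -0.30 log2 late, a shift of -0.59 log2. Kit differed by -0.10 log2 early, 0.11 log2 in the intermediate phase and -0.28 log2 late, shifts of 0.20 and -0.39 log2. Cd34 differed by 0.21 log2 early, 0.13 log2 in the intermediate phase and -0.32 log2 late, which gives late minus early -0.53 log2 and late minus intermediate -0.44 log2. The late minus early shift of Cd34 was tested and did not pass (limma adjusted p = 0.326), and the other shifts were not tested. Flt3 and Kit lie near the filter value, as does Cd34 from 12 h on, and 2 arrays on 1 side in a phase is a weak criterion. No group held 4 or more arrays, so no array was tested as standing apart within its group.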

How the results depend on the processing

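Of 32 member values whose 95% interval left out 0, 405 alternatives gave 377 on the same side of the threshold, 17 that lost and 11 that gained a call, and 0 changes of sign. Of 88 values whose interval spans 0, 61 of 1126 alternatives changed sign, 55 of them when arrays were left out, and 2 others gained a call. Of 197 alternative counts of members called, 169 were equal or stayed within 1.5 times. Most main counts were 0, and a 0 that stayed 0 is among the 169, so this share does not measure how stable the calls were. With the dimmest 50% of genes left out, Cd34, Flt3 and Kit are not tested, so the counts against 0 h became 0 in the intermediate phases of both arms and in the αKG late phase, and 0 for the αKG slope. In fits of only the groups compared, the counts were 3 for DW early, 0 for DW intermediate, 1 for DW late and 0 for αKG intermediate. For DW early, intermediate and late these fits called 775, 0 and 115 of all genes. Quantile normalization and centring on array medians each gave 1 for the DW slope (Cd34, limma adjusted p = 0.0475 and 0.0463). Leaving out arrays in turn gave 0 to 1 for DW intermediate, 1 to 3 for DW late, 0 to 0 for αKG intermediate, 0 to 2 for αKG against DW early, 0 to 2 for αKG against DW late, and 0 to 1 for either slope. A phase left with 1 array per arm or group is assumed to vary like the others. Csf1r in αKG against DW late ranged from -0.40 to 0.25 log2, negative without the 48 h pair and positive without the 72 h pair. Apart from the changes that fewer genes or arrays bring by construction, the cause was not tested. Without the replicate block by time 0 members were called for αKG against DW (Csf2rb2 over 6 times -0.46 log2, limma adjusted p = 1). The fits with the block had called 0 as well, so there was no call to lose. The slope difference with time as a block called 0 members. Signal over background is not known per gene, which limits Flt3, Kit and Cd34 from 12 h on most. With 1 array per condition and time, time and array cannot be told apart.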
